A study of Mus musculus with 2 samples.

Results

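The matrix metalloproteases (MMPs), the ADAM and ADAMTS proteases and the tissue inhibitors of metalloproteases (TIMPs) were followed by their mRNA in single cells of the mouse dorsal meninges. The members were taken by name, as every listed gene whose symbol begins with Mmp, Timp, Adam or Adamts followed by a digit, which gave 78 of the 32285 genes in the count matrices: 22 MMP, 33 ADAM, 19 ADAMTS and 4 TIMP genes. The symbol rule itself used no measured value, but the members were chosen with earlier results of these data known. The samples are 2 libraries of wild-type male C57BL/6 mice (C57BL/6J in the study's methods) at 10 weeks of age, each pooled from the dorsal meninges of 5 animals. The Sham mice had received a sham procedure 1 week earlier, and the TBI mice a mild closed-skull traumatic brain injury 1 week earlier. No transgene or engineered allele is named for either group. The tissue was digested with collagenase VIII and DNase I, live cells were sorted, and the meninges at the site of impact were not collected. With 1 library per group there is no replicate error, no test between the groups was made, and an effect of the injury cannot be told apart from a difference between the libraries or the pools.

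MMPs are zinc-dependent proteases that cut collagens and other matrix proteins, and most are secreted as inactive precursors. ADAMs sit in the plasma membrane and release the outer parts of cytokines, growth factors and receptors, while ADAMTSs are secreted and process procollagens, proteoglycans and other matrix proteins. TIMPs bind the active site of these enzymes and block it. In the meninges such enzymes act on a collagen-rich layer with many fibroblasts, fenestrated vessels and resident macrophages. The counts are of mRNA, so enzyme activity, which depends on activation and on the balance with TIMPs, was not measured.

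The Sham and TBI matrices held 9527334 and 15011079 UMIs (unique molecular identifiers, 1 for each captured transcript) in 2699 and 4349 barcodes, and 2043 and 3773 cells with 7866611 and 13940740 UMIs passed the filters. More Sham than TBI barcodes (604 and 431) were over the limit of 5% hemoglobin UMIs, and 20 barcodes occurred in both libraries, 14 of them in kept cells. Clustering without the member genes gave 25 clusters, which were named by markers as 19 classes. Levels below are UMIs per 1000000 UMIs of a class (CPM), with exact Poisson 95% intervals that cover counting error only. The chemistry counts transcript ends, so CPM were not divided by gene length and each gene is compared between classes or libraries, not with other genes. A count of 0 allows up to 3 counts, or 0.381 CPM for all Sham cells and 0.215 CPM for all TBI cells. The fibroblast-like class had 121 Sham and 762 TBI cells, 5.92% and 20.2% of the cells, and its 2 clusters had 12 and 9 of the 14 fibroblast markers at least 2-fold above other cells.

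The members are sparse in these cells. Together they held 25511 UMIs, 0.117% of all UMIs, and 3 genes (Timp3, Timp2 and Adam15) held 37.3% of those. In all, 18 members had no UMI in either library, 20 had 1 to 29, 8 had 30 to 99 and 32 had 100 or more. Of the 15 ADAM genes classed here as testis-type, 9 had no UMI and none reached 100, with 59 UMIs together. Of the 32 members with at least 100 UMIs, 14 had their highest mean CPM in fibroblast-like cells, 6 in Schwann-like cells, 3 in pericyte or smooth muscle-like cells, 2 each in endothelial-like, migratory dendritic-like and neutrophil-like cells, and 1 each in immature B-like, macrophage-like and pineal-like cells. For 27 of the 32 the same class was highest in both libraries. These rankings used only classes with at least 10 UMIs of the gene over both libraries. The same counts over all genes are not given, so they are not shown to be particular to the members. The minimum of 100 UMIs was summed over both libraries, with 121 Sham and 762 TBI fibroblast-like cells. Genes of these cells could pass it mainly through TBI, as Adam12 did with 32 Sham and 275 TBI UMIs.

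**Figure D1:**
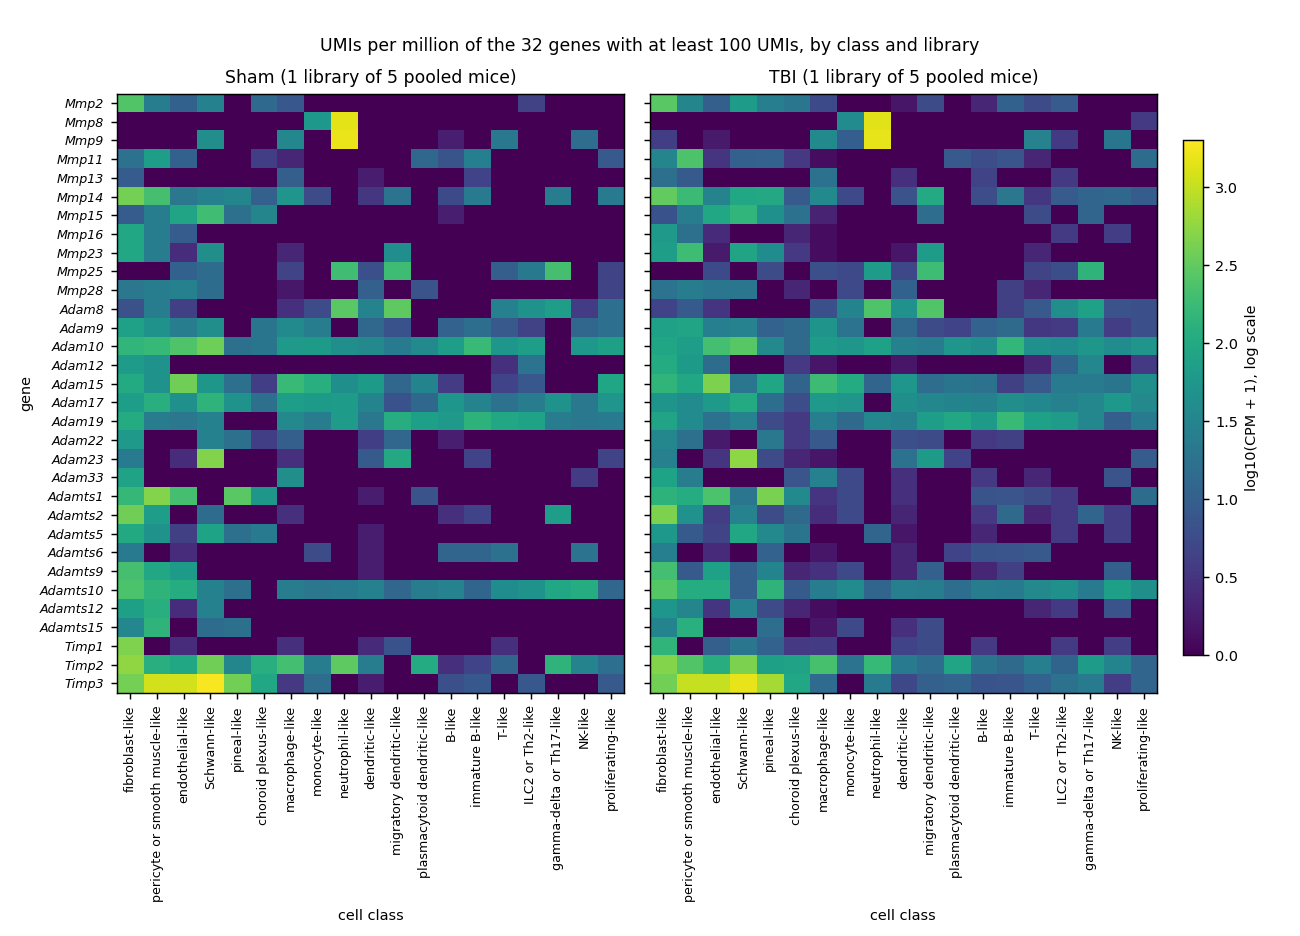
Level of the 32 members with at least 100 UMIs (rows) in each cell class (columns), with Sham in the left and TBI in the right panel; the color is CPM on a log10 scale after adding 1, and brighter is higher. Mmp8 and Mmp9 are brightest in neutrophil-like cells, and Timp3 in Schwann-like, pericyte or smooth muscle-like and endothelial-like cells. Among classes with at least 10 UMIs of the gene, 14 of the 32 genes have their highest mean in the fibroblast-like column. The same count over all genes is not given.

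The start regions of 5 members are shown because members of 1 family or 1 gene cluster differ in the cells that hold their mRNA. They are the 3 TIMPs with over 100 UMIs, and Mmp13 and Mmp8, which lie in 1 gene cluster with other genes between them. A link between the sequences and the cells was not tested. Each line gives the 150 bases before the RefSeq transcript start on GRCm38.p6, read 5′ to 3′ on the strand of the gene. Capitals mark exact matches, on either strand, to the letters of 4 known motifs that do not overlap here. The GC box was searched as GGGCGG. The AP-1 site was searched as TGAGTCA. The TATA box was searched as TATAAA. The RUNX site was searched as AACCACA. The windows lie at chrX:20870016-20870165 on the plus strand for Timp1, chr11:118355412-118355561 on the minus strand for Timp2, chr10:86300262-86300411 on the plus strand for Timp3, chr9:7272364-7272513 on the plus strand for Mmp13 and chr9:7558279-7558428 on the plus strand for Mmp8. The gene positions given below come from another annotation, GENCODE, which starts Timp2 at 118355740 and Timp3 at 86300372. By those starts the Timp2 window and the end of the Timp3 window lie inside the genes.
Timp1: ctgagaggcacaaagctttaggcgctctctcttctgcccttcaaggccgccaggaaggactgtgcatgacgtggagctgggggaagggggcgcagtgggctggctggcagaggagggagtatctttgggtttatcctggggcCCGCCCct
Timp2: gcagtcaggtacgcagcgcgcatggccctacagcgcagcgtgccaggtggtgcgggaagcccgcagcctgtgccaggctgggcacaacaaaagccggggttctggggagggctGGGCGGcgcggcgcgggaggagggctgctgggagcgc
Timp3: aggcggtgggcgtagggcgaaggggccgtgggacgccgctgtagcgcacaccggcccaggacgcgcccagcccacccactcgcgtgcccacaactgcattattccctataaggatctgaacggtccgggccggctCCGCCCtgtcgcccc
Mmp13: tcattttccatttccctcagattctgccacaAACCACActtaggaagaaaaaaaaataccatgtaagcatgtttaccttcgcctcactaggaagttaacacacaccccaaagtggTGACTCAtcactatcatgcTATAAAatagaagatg
Mmp8: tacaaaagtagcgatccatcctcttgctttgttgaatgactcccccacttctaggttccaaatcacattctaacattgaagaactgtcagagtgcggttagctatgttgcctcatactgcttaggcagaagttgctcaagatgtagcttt

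The windows of Timp1, Timp2 and Timp3 are 62.7%, 73.3% and 70.7% G or C and each holds a GC box, while those of Mmp13 and Mmp8 are 38.7% and 42.7% G or C and hold none. The Mmp13 window holds a RUNX match that begins 119 bases before the start, an AP-1 match at 35 and a TATA match at 16. RefSeq gave 53 promoter windows of 300 bases (250 before and 50 after the start) for 48 members. An AP-1 match was in 9 of the 53 (17%) and in 5.2% of all 32851 windows, and the 9 genes were Adam19, Adam1b, Adam29, Mmp10, Mmp12, Mmp13, Mmp1b, Mmp3 and Mmp7. Of those genes only Adam19 and Mmp13 reached 100 UMIs. Mmp10, Mmp12, Mmp13, Mmp1b, Mmp3 and Mmp7 lie in 1 gene cluster on chromosome 9, so much of the 17% comes from 1 locus. A TATA match was in 24.5% of member windows and 13.6% of all, a GC box in 43.4% and 35.7%, and the RUNX letters in 5.66% and 5.27%. The genes with a TATA match include these MMP genes and also Mmp8 and Mmp20 of that cluster. Such a match is a description of letters and not a measured binding site.

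The TIMPs differed in the cells that held most of their UMIs: fibroblast-like cells for Timp1, macrophage-like and fibroblast-like cells for Timp2, and endothelial-like cells, followed by fibroblast-like cells, for Timp3. The level per class gave another order for Timp3, which was highest in the small Schwann-like class. Timp1 (X:20870166-20874735, GRCm38) is a secreted inhibitor of most MMPs. Fibroblast-like cells held 165 of its Sham UMIs (95.4%) and 321 of its TBI UMIs (89.2%), at 454 CPM (387 to 528) in Sham and 143 CPM (128 to 160) in TBI. Of these Sham UMIs 112 were in 1 cell, which the interval does not take into account. Without the cell with the most UMIs in each library the levels were 153 and 133 CPM. Elsewhere Timp1 was scarce: the next most UMIs were 12 in TBI endothelial-like cells (9.09 CPM), and the next highest level, 18.7 CPM in TBI Schwann-like cells, came from 2 UMIs.

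Timp2 (11:118301069-118355740) inhibits MMPs and also takes part in the activation of pro-MMP2 at the cell surface. Its level in fibroblast-like cells was 569 CPM (494 to 652) in Sham and 493 CPM (465 to 523) in TBI, and in Schwann-like cells 383 (255 to 554) and 439 CPM (322 to 584). Macrophage-like cells had 203 CPM (182 to 227) and 216 CPM (201 to 232), which made them the largest holder of Timp2 UMIs in Sham (42.5%), while fibroblast-like cells held most in TBI (47.6%). Cells were also thinned to 1000 UMIs each, so that shares of cells are compared at equal depth. Free RNA in the droplets can give UMIs to cells that do not express a gene. Thinning does not remove such UMIs, so B-like cells are given for comparison. After thinning, Timp2 was seen in 20.2% of Sham and 22.1% of TBI macrophage-like cells. In B-like cells it was seen in 0 of 326 Sham (upper limit 1.13%) and 2.66% of TBI cells. Without thinning, the macrophage-like shares were 42% and 49.3% and the B-like shares 0.275% and 4.56%. Thinning left out the cells under 1000 UMIs, which were 102 Sham and 121 TBI macrophage-like, 34 and 99 fibroblast-like and 37 and 22 B-like cells.

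Timp3 (10:86300372-86349506) stays bound to the matrix and also inhibits ADAM and ADAMTS enzymes. It was highest in Schwann-like cells, at 1850 CPM (1550 to 2190) in Sham and 1540 CPM (1310 to 1790) in TBI. Pericyte or smooth muscle-like cells had 1190 CPM (884 to 1560) and 1020 CPM (857 to 1210), and endothelial-like cells 1180 CPM (1090 to 1270) and 1020 CPM (967 to 1080). The intervals of the last 2 classes overlap in both libraries, so these neighbours cannot be ordered at this depth. Fibroblast-like cells had less, 412 CPM (349 to 484) and 394 CPM (368 to 421). Among endothelial-like clusters the one led by Vwf had 653 and 546 CPM of Timp3, below the 1340 and 1300 CPM of the cluster led by Gpihbp1 and the 1330 and 1310 CPM of the cluster led by Sema3g and Gja5.

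Timp4, with 27 UMIs in all, is rare here. In endothelial-like cells it had 1 UMI in Sham and 19 in TBI, the latter in 6 cells, and 17 of these UMIs lay in the cluster led by Gpihbp1. Each of Timp1, Timp3 and Timp4 lies inside a synapsin gene on the opposite strand (Syn1, Syn3 and Syn2), whose own counts were 9 and 11, 7 and 24, and 13 and 24 UMIs in Sham and TBI. Timp2 shares its strand with the overlapping Cep295nl, which had 6 and 16 UMIs.

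The gelatinases Mmp2 and Mmp9, which cut denatured collagen and basement membrane collagen, lay in different cells. Mmp2 (8:92827291-92853420) was a fibroblast-like gene, at 250 CPM (201 to 307) in Sham and 286 CPM (264 to 309) in TBI, with 78.4% and 89.9% of its UMIs there. After thinning it was seen in 18.4% and 21.9% of fibroblast-like cells and in 0 of 326 and 0 of 263 B-like cells, for which the exact upper limits are 1.13% and 1.39%. The unthinned Mmp2 shares were 34.7% and 37.1% of fibroblast-like cells. Mmp9 (2:164940780-164955850) was highest in neutrophil-like cells, at 1580 CPM (1240 to 1990) and 1490 CPM (1250 to 1760). Those 16 Sham and 26 TBI cells held 50.7% and 44.5% of its UMIs. Macrophage-like cells had 32.2 and 37.1 CPM of Mmp9, and 43 of the 51 Sham and 117 of the 132 TBI UMIs were in the cluster led by Folr2 and Cd209f. That cluster had 71 and 67.5 CPM, the cluster led by Ccl8 and Hpgds 26.1 and 56.7 CPM from 4 and 14 UMIs, and the cluster led by Slamf9 and Fcgr4 4.85 and 0.633 CPM from 4 and 1 UMIs.

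The collagenase Mmp8 (9:7558456-7568485) was nearly confined to neutrophil-like cells, which held 68 of its 80 Sham UMIs and 130 of its 140 TBI UMIs, at 1470 CPM (1140 to 1870) and 1400 CPM (1170 to 1670). The remaining Sham UMIs were in monocyte-like cells, at 57.3 CPM, and that class had 38.5 CPM in TBI. Mmp8 is 1 of 9 MMP genes of the count matrices that lie in 427 kb of chromosome 9 (7272514-7699585), and the others of these 9 differed from it. Mmp13, the main interstitial collagenase of mice, had 120 UMIs with its highest levels in macrophage-like cells (8.84 CPM, 4.83 to 14.8, and 16.3 CPM, 12.4 to 21.1) and fibroblast-like cells. Mmp12, the macrophage elastase, had 74 UMIs, with 18 Sham and 21 TBI UMIs in macrophage-like cells and 12 and 13 in dendritic-like cells. Mmp7, or matrilysin, had 17 UMIs, of which 14 were in 4 migratory dendritic-like cells of TBI. The stromelysin Mmp3 had 5 UMIs, Mmp27 had 2, and Mmp1b, Mmp10 and Mmp20 had none.

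The membrane-type MMPs sit on the cell surface, and Mmp14 is best known for activating pro-MMP2. Mmp14 (14:54431612-54445364) was highest in fibroblast-like cells, at 401 CPM (339 to 472) in Sham and 317 CPM (294 to 341) in TBI, followed by pericyte or smooth muscle-like cells with 210 CPM (95.8 to 398) and 177 CPM (112 to 266). Macrophage-like cells had 51.8 and 36.5 CPM. Mmp16, another activator of pro-MMP2, was read in fibroblast-like cells at 90.7 CPM (62.5 to 127) and 59.3 CPM (49.6 to 70.2), with 84.6% and 94.3% of its UMIs there. Mmp15 was highest in Schwann-like cells (192 and 149 CPM) and endothelial-like cells (82.5 and 93.9 CPM), and the endothelial-like class held 63% and 65.3% of its UMIs. Mmp25, a leukocyte enzyme anchored by a lipid tail, was at 189 CPM (130 to 265) and 188 CPM (134 to 256) in migratory dendritic-like cells, at 210 and 141 CPM in gamma-delta or Th17-like cells and at 195 and 64.7 CPM in neutrophil-like cells. The remaining membrane-type genes Mmp17 and Mmp24 had 15 and 2 UMIs.

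Mmp2, Mmp14 and Timp2, which act together in the activation of pro-MMP2 at the cell surface, all had their highest mean level in fibroblast-like cells, which held most UMIs of Mmp2 and Mmp14 in both libraries but 27.3% of the Sham and 47.6% of the TBI UMIs of Timp2. Within that class the share of cells with Mmp14 or Timp2 was higher among cells with Mmp2 than among those without. Among fibroblast-like cells thinned to 1000 UMIs, Mmp14 was seen in 50% of the 16 Sham cells with Mmp2 and in 18.3% of the 71 without, and in TBI in 39.3% of 145 and 23.6% of 518. Timp2 was seen in 43.8% of Sham cells with Mmp2 and 26.8% of those without, and in 49.7% and 29.7% in TBI. These shares describe cells of 1 library each and were given no test. Other gene pairs of the class were not read beside them, so the shares are not shown to be particular to these genes.

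Other secreted MMPs were low. Mmp11, or stromelysin-3, was highest in pericyte or smooth muscle-like cells, at 69.9 CPM (14.4 to 204) in Sham and 239 CPM (162 to 339) in TBI, from 3 and 31 UMIs. Mmp11 overlaps Chchd10 on the opposite strand, which had 2277 and 3547 UMIs. Mmp23 was read at 93.5 and 70.4 CPM in fibroblast-like cells and at 23.3 and 185 CPM in pericyte or smooth muscle-like cells, the latter from 1 and 24 UMIs. Mmp28, or epilysin, had 27.5 and 18.9 CPM in endothelial-like cells and 19.2 and 16.9 CPM in fibroblast-like cells, with intervals that overlap.

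Among the catalytic ADAMs, Adam10, which cuts Notch receptors and adhesion proteins, was highest in Schwann-like cells (370 CPM, 244 to 538, and 280 CPM, 189 to 400) and endothelial-like cells (244 CPM, 207 to 287, and 202 CPM, 179 to 228). Adam17, which releases TNF, was at 137 and 103 CPM in Schwann-like cells, from 10 and 11 UMIs, and at 68.9 and 57.9 CPM in macrophage-like cells, from 109 and 206. Adam9 was at 77 and 77.5 CPM in fibroblast-like cells and at 36.6 and 50 CPM in macrophage-like cells.

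Adam15 (3:89338542-89349996), a vascular and myeloid ADAM, had 385 CPM (338 to 437) in Sham and 441 CPM (406 to 478) in TBI in endothelial-like cells, and 169 and 181 CPM in macrophage-like cells. Among endothelial-like clusters the one led by Sema3g and Gja5 was highest for Adam15, with 837 and 585 CPM. Adam8, a myeloid ADAM, was at 303 and 253 CPM in migratory dendritic-like cells and at 282 and 248 CPM in neutrophil-like cells. Adam19 was highest in immature B-like cells (133 CPM, 93.8 to 184, and 172 CPM, 129 to 224), with 107 and 82.9 CPM in fibroblast-like cells. Adam12, known from mesenchymal and muscle precursor cells, had 66 CPM (42.3 to 98.2) and 105 CPM (91.8 to 119) in fibroblast-like cells, which held 75% and 85.5% of its UMIs. Adam33 had 79.7 and 80.2 CPM in fibroblast-like cells and 42.3 and 27.3 CPM in macrophage-like cells.

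ADAMs without the zinc site act as binding proteins, and those read here include partners of LGI proteins at nerve cells. Adam23 was highest in Schwann-like cells, at 466 CPM (322 to 651) and 542 CPM (411 to 700). All 34 and 58 of these UMIs lay in the cluster led by Gfra3, Kcna1 and Scn7a, at 790 CPM in Sham and 769 CPM in TBI. Adam22 was highest in fibroblast-like cells, at 60.5 CPM (37.9 to 91.6) and 32.5 CPM (25.5 to 40.9). Adam11, with 84 UMIs in all, had 95.9 and 121 CPM in Schwann-like cells.

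The ADAMTS genes were mostly fibroblast-like. Adamts2 (11:50602084-50807573), which trims the ends of fibrillar procollagens, had 388 CPM (326 to 457) in Sham and 444 CPM (417 to 473) in TBI in fibroblast-like cells, with 91.6% and 95.9% of its UMIs there. Its relative Adamts3 had 35.7 and 24.5 CPM in the same cells, while Adamts14, another procollagen enzyme, was read in NK-like cells at 99.8 CPM (69.5 to 139) and 74.6 CPM (48.3 to 110), from 35 of its 40 and 25 of its 32 UMIs. Adamts10, which binds fibrillin microfibrils, had 234 CPM (187 to 289) and 267 CPM (246 to 289) in fibroblast-like cells and 110 and 111 CPM in endothelial-like cells. Adamts12 was at 74.2 and 53.9 CPM in fibroblast-like cells and Adamts6 at 22 and 25.4 CPM there.

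Among the ADAMTSs that cut proteoglycans such as versican and aggrecan, Adamts9 had 209 CPM (165 to 262) and 203 CPM (185 to 222) in fibroblast-like cells and 61.5 and 76.5 CPM in endothelial-like cells. Adamts5 was at 99 CPM (69.3 to 137) and 55.7 CPM (46.4 to 66.4) in fibroblast-like cells, and at 82.2 and 93.4 CPM in Schwann-like cells, from 6 and 10 UMIs. Adamts15 was at 140 and 123 CPM in pericyte or smooth muscle-like cells, from 6 and 16 UMIs, and at 33 and 29.4 CPM in fibroblast-like cells. Adamts1 was at 210 CPM (176 to 250) and 229 CPM (204 to 257) in endothelial-like cells and at 159 and 136 CPM in fibroblast-like cells. Its pineal-like level was 281 CPM in Sham, where 16 of the 18 UMIs were in 1 cell. In TBI it was 429 CPM, from 87 UMIs in 21 cells, or 343 CPM without the cell with the most UMIs.

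The TBI library as a whole held more transcripts of these genes, 1340 against 872 CPM. Of the 32 members with at least 100 UMIs, 9 were at least 2-fold higher in the whole TBI library, beside 6.17% of the 11704 genes with as many UMIs, and 0 at least 2-fold lower, beside 1.2%. The median log2 ratio was 0.70, beside 0.08 for those 11704 genes. Fibroblast-like cells gave 4.62% of the UMIs of the Sham library and 16.1% of those of the TBI library. When the Sham level of each class was combined with the TBI shares of the classes, the same 32 genes gave a median of 0.62, 12 were at least 2-fold higher, and 8 were past 2-fold in both. The measured ratio lay within 0.5 of that calculated one for 25 of the 32 genes. No such calculation is given for the 11704 genes, and the part of the class shares in the ratios was not tested.

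Mmp2 had 14.7 CPM in the whole Sham library and 51.2 CPM in the whole TBI library, a log2 ratio of 1.79, where class shares alone gave 1.58. Adamts2 had 19.6 and 74.6 CPM, a log2 ratio of 1.93 against 1.72 from the shares. Adam12 had 4.07 and 19.7 CPM, a log2 ratio of 2.26 against 1.51. Mmp13 (1.55 against 0.64) and Mmp11 (0.94 against 0.41) were also more than 0.5 above the value from the shares, and Adam22, Adamts5 and Mmp16 were 0.61, 0.66 and 0.64 below it. Timp1 stood farthest off: 22 CPM in Sham and 25.8 CPM in TBI, a log2 ratio of 0.23, where the shares alone gave 1.75. Of the 173 Sham UMIs of Timp1, 112 were in 1 fibroblast-like cell. Without the cell with the most Timp1 UMIs in each library the levels were 7.77 and 24.2 CPM, and the ratio was 1.63 (1.24 to 2.06) against 1.71 from the shares.

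**Figure D2:**
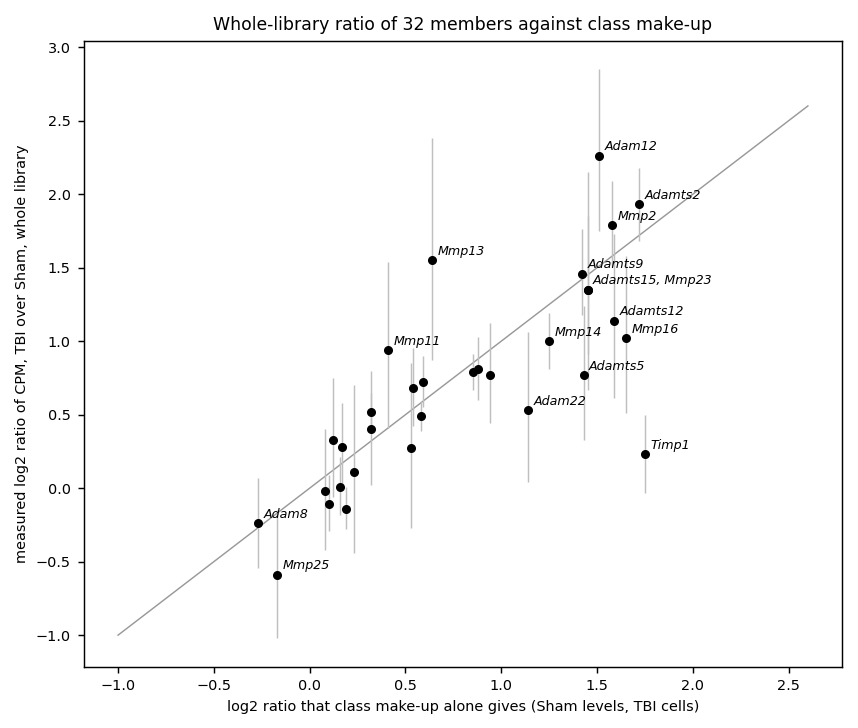
Measured log2 ratio of TBI over Sham CPM in the whole library (y axis) against the log2 ratio that the change in class shares alone would give (x axis), 1 point per member with at least 100 UMIs; gray bars are exact 95% counting intervals and the line marks equal values. The points of 25 of the 32 genes lie within 0.5 of the line, and Timp1 lies 1.52 below it with all cells and 0.09 below it without the cell with the most Timp1 UMIs in each library.

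Within classes the 2 libraries were compared for members with at least 30 UMIs over both, by the log2 ratio of TBI over Sham CPM with an exact binomial 95% interval that covers counting error only. In each class compared here and below, TBI had more UMIs than Sham. A gene higher in TBI could therefore pass this minimum with few Sham UMIs, so the choice of genes was not independent of the ratio. In fibroblast-like cells 31 members could be compared, 11 above 0 and 20 below, with a median of -0.10 beside -0.03 for all genes. None was at least 2-fold higher, beside 3.71% of all 9544 genes compared in these cells, and 1, Timp1, was at least 2-fold lower, beside 2.23%. These calls depended on the treatment of cells. By the mean over cells of counts per 10000, Adam12 (1.21), Mmp11 (1.43) and Mmp13 (3.64) were past 2-fold higher and Timp1 was at -0.48. Without the cell with the most UMIs of the gene in each library, Mmp11 (1.19), Mmp13 (1.56) and Mmp19 (1.12) were past 2-fold higher and Timp1 was at -0.21. The Mmp11, Mmp13 and Mmp19 ratios then rested on 4, 0 and 3 Sham UMIs. Their intervals all include 0: -0.07 to 3.27 for Mmp11, -0.31 to 3.66 for Mmp19, and from -1.71 with no upper limit for Mmp13. No share over all genes is given under these settings. The 3 members with the most UMIs there were Timp2 (log2 ratio -0.21, -0.42 to 0.01), Adamts2 (0.19, -0.06 to 0.46) and Timp3 (-0.07, -0.32 to 0.19), all with intervals that include 0.

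Some smaller differences had intervals on 1 side of 0, here and in the other classes and the partner genes below. The share of all genes with such intervals is not given. These differences are therefore not shown to be particular to the genes named. Adam10 was lower in TBI fibroblast-like cells (146 and 85.6 CPM, log2 ratio -0.78, -1.21 to -0.30), and so were Adam22 (-0.92, -1.60 to -0.14), Adamts5 (-0.84, -1.37 to -0.25), Mmp16 (-0.63, -1.17 to -0.02) and Mmp14 (-0.34, -0.60 to -0.07). Leaving out the cell with the most UMIs in each library brought 0 into the intervals of Adam22 (-1.50 to 0.06) and Mmp16 (-1.05 to 0.20), and by the mean over cells Mmp14 was at 0.06. Adam12 (0.64, 0.06 to 1.34) and Adam15 (102 and 144 CPM, 0.49, 0.01 to 1.04) were higher. Outside fibroblast-like cells, the Adam10 ratio was above 0 only in macrophage-like cells (0.13) among classes with enough UMIs to compare. In the rest it lay between -0.77 (ILC2 or Th2-like) and -0.15 (immature B-like), so a lower ratio was not particular to fibroblast-like cells. Of those intervals only the B-like one (-0.64, -1.27 to -0.06) left out 0. B-like cells held Adam10 at 68.3 CPM in Sham, so here they are no comparison for free RNA. After thinning to 1000 UMIs, Adam10 was seen in 21.8% of 87 Sham and 7.69% of 663 TBI fibroblast-like cells, and in B-like cells in 7.98% and 1.9%. The unthinned Adam10 shares were 31.4% and 20.7% of fibroblast-like and 19.8% and 11.2% of B-like cells. Other measures moved with these ratios in fibroblast-like cells: 6 immune marker genes were at 294 CPM in Sham and 1310 CPM in TBI, with Cd79a and Cd3e at 0 in Sham, 18 macrophage markers were at 146 and 631 CPM, 20 genes known to be induced by tissue dissociation were at 1810 and 2470 CPM, and hemoglobin genes were at 1050 and 298 CPM. Their part in the ratios was not tested.

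**Figure D3:**
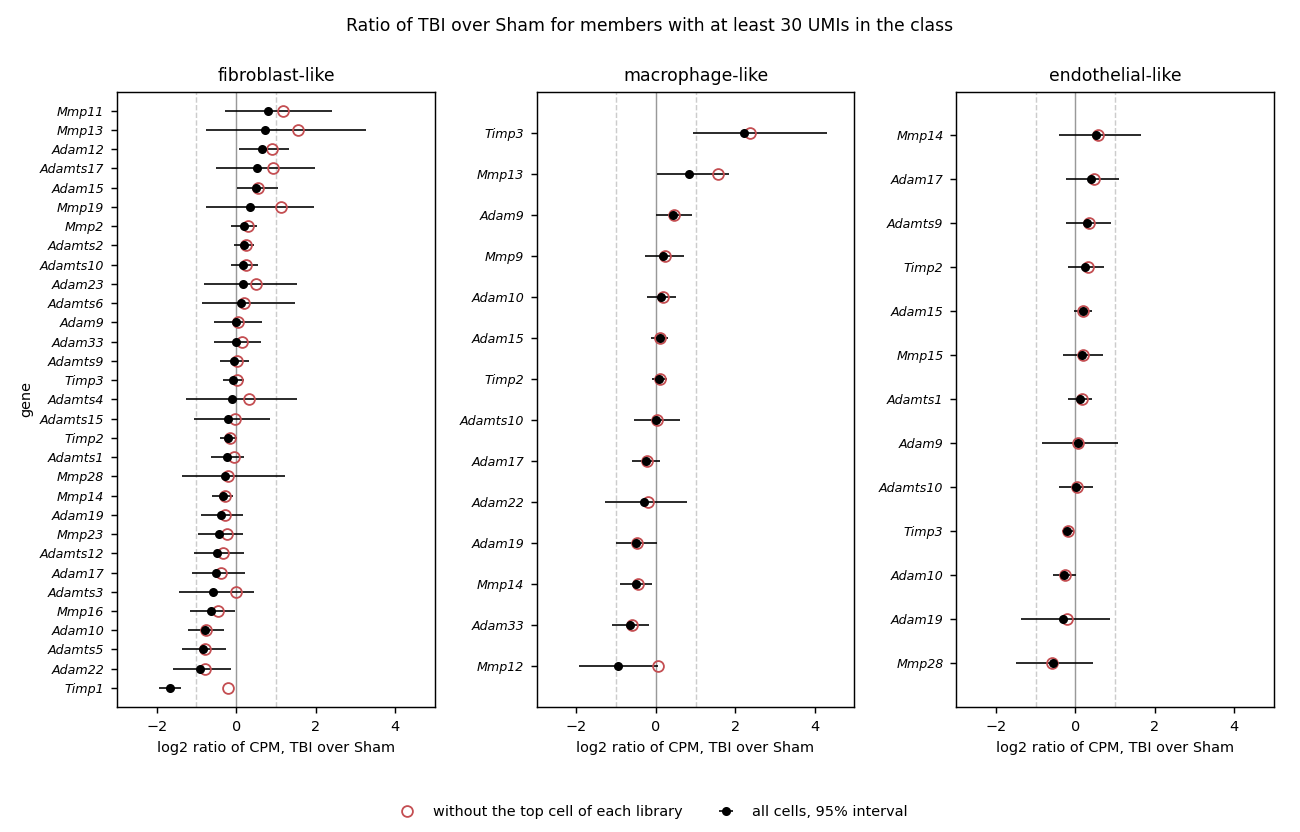
Log2 ratio of TBI over Sham CPM of the members with at least 30 UMIs in fibroblast-like, macrophage-like and endothelial-like cells; black points with bars are all cells with exact 95% counting intervals, open red circles leave out the cell with the most UMIs of the gene in each library, and dashed lines mark 2-fold. The black points past a dashed line are Timp1 in fibroblast-like and Timp3 in macrophage-like cells, and the red circle of Timp1 lies at -0.21.

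The Timp1 ratio of -1.67 (-1.94 to -1.39) rested on 1 cell. Of the 165 Timp1 UMIs in the 121 Sham fibroblast-like cells, 112 (67.9%) were in a single cell, while the highest TBI cell held 23 of 321 (7.17%). That Sham cell had 16558 UMIs, 4259 detected genes and 0.115% mitochondrial UMIs, held 122 Col1a1, 35 Dcn, 73 Lum and 0 Ptprc UMIs, and was among the predicted doublets. It also held all 3 Mmp13 UMIs of the Sham fibroblast-like cells. Without the cell with the most UMIs in each library, Timp1 was at 153 CPM in Sham and 133 CPM in TBI, a log2 ratio of -0.21 (-0.62 to 0.25), and with predicted doublets removed the ratio was -0.17. The share of fibroblast-like cells with a Timp1 UMI was 19.8% in Sham and 22.3% in TBI, and after thinning 10.3% of 87 and 9.2% of 663 cells.

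Mmp13 was carried by few cells as well. In TBI fibroblast-like cells 26 of its 35 UMIs were in 1 cell of 1318 UMIs, which also held 7 UMIs of Ibsp, 2 of Runx2 and 13 of Col1a1, genes of bone-forming cells or of collagen. Of all fibroblast-like Mmp13 UMIs, 3 of 3 in Sham and 31 of 35 in TBI lay in the subcluster led by Bglap, Tnc and Bglap2. Its ratio of 0.72 (-0.75 to 3.26) has an interval that includes 0. It was 3.43 with predicted doublets removed, a setting that leaves out the only Sham cell with Mmp13, and 3.64 by the mean over cells. The Mmp13 ratio in macrophage-like cells was 0.84 (0.02 to 1.84), or 1.57 without the cell with the most UMIs in each library.

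**Figure D4:**
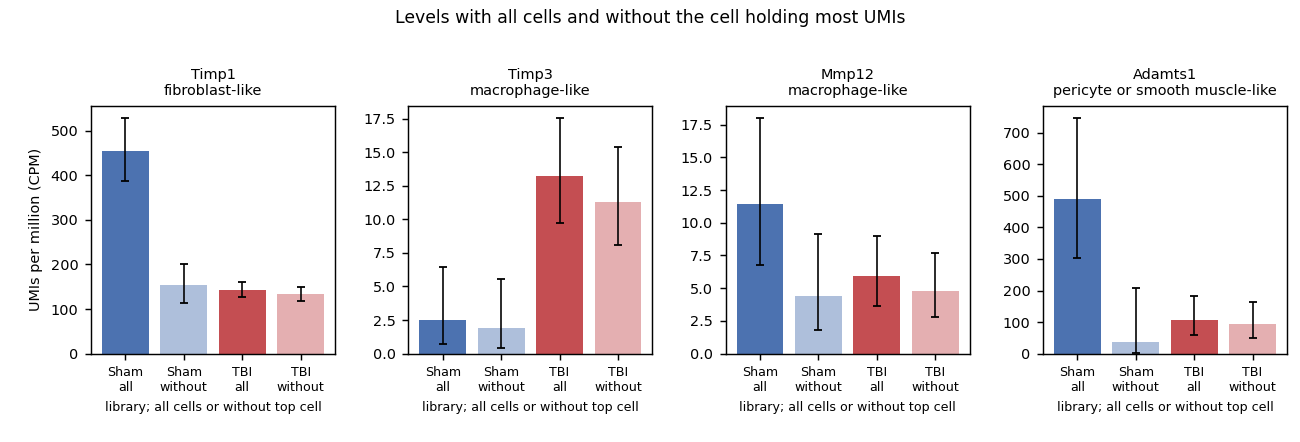
Level in CPM of 4 gene and class pairs in Sham (blue) and TBI (red), with all cells (dark bars) and without the cell that held the most UMIs of the gene in that library (light bars); error bars are exact Poisson 95% intervals. The Sham bar of Timp1 falls from 454 to 153 CPM, that of Mmp12 from 11.4 to 4.44 CPM and that of Adamts1 from 489 to 37.5 CPM, while Timp3 in macrophage-like cells stays higher in TBI.

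The fibroblast-like cells were not uniform in these genes. Clustered anew they gave 6 subclusters with 11 to 38 Sham and 67 to 204 TBI cells. Mmp2 was highest in the subcluster led by Bglap and Tnc (708 CPM in Sham and 595 CPM in TBI) and that led by Chad and Comp (362 and 556 CPM), and lowest in that led by Gm16070 in Sham (109 CPM) and that led by Ptgds in TBI (106 CPM). Timp2 was also highest in the Bglap-led subcluster, with 1020 and 991 CPM, and was lowest in the Ptgds-led subcluster in Sham (241 CPM) and in the Gm16070-led subcluster in TBI (224 CPM). Adamts9 was highest in TBI in the Gm16070-led subcluster (328 and 506 CPM) and was at 375 and 282 CPM in the Chad-led one. Timp1 was at 278 and 231 CPM in the subcluster led by Hs3st1 and Penk, and its 2330 CPM in the Sham Bglap-led subcluster is the single cell described above.

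Adamts2 lay between 275 and 583 CPM in Sham and between 295 and 629 CPM in TBI in the subclusters other than that led by Cyth4, C1qb and Lyz2, where it was at 153 and 422 CPM. The Cyth4-led subcluster, with 23 Sham and 159 TBI cells, is led by macrophage genes. Without it, 4 of the members were past 2-fold instead of 1: Timp1 (-1.79) and Adam22 (-1.08) lower, and Adam12 (1.18) and Mmp11 (1.47) higher. Of all 8802 genes compared without it, 4.01% were at least 2-fold higher and 1.99% at least 2-fold lower. Of these, Adam12 and Mmp11 rested on 24 and 6 Sham UMIs in the whole class.

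**Figure D5:**
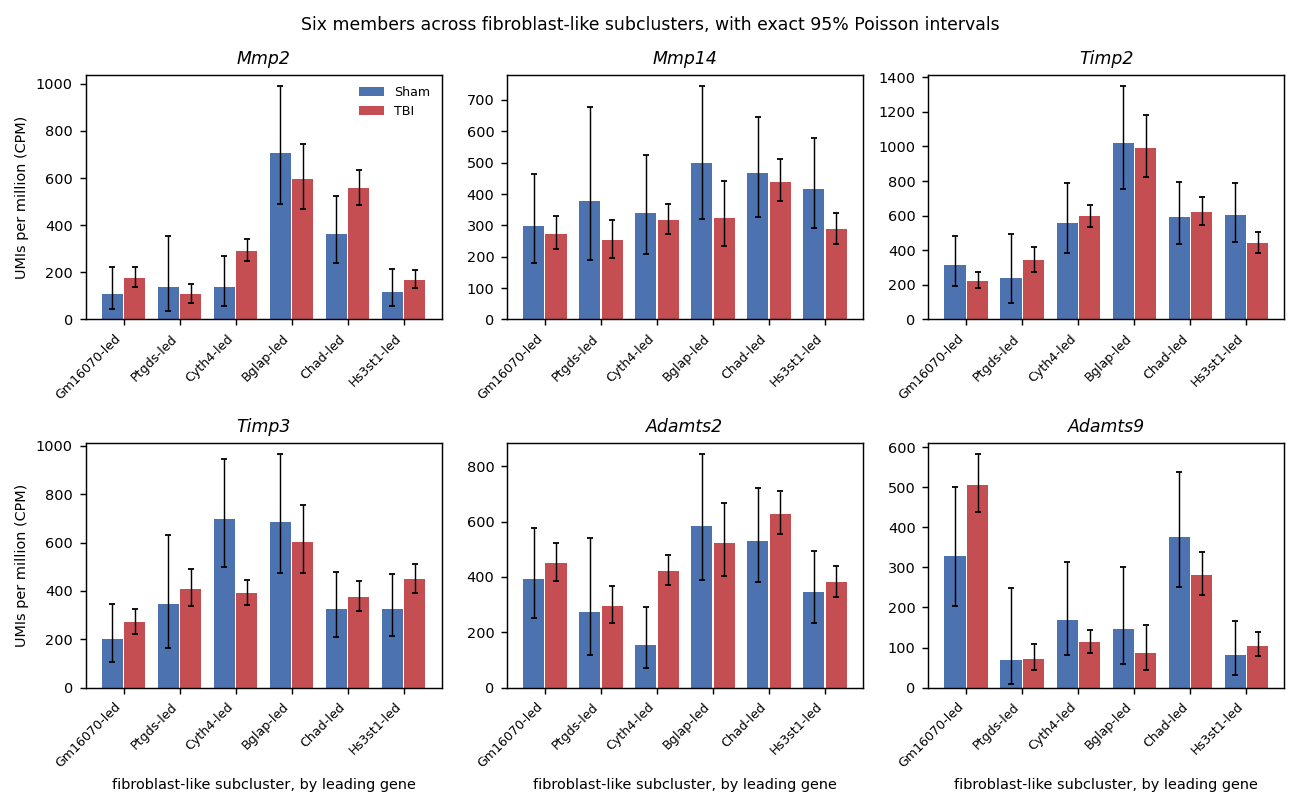
Level of Mmp2, Mmp14, Timp2, Timp3, Adamts2 and Adamts9 in the 6 subclusters of fibroblast-like cells, in CPM, with Sham (blue) and TBI (red) bars and exact Poisson 95% intervals; each subcluster is labelled by its leading gene. Mmp2 and Timp2 are highest in the Bglap-led subcluster, and Adamts9 is high in the Gm16070-led and Chad-led ones.

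In macrophage-like cells 14 members could be compared, 8 above 0 and 6 below, with a median log2 ratio of 0.04 beside 0.02 for all genes. Of these 1, Timp3, was at least 2-fold higher, beside 1.76% of all genes compared there, and 0 were at least 2-fold lower, beside 0.846%. Those with the most UMIs were Timp2 (0.08, -0.10 to 0.28), Adam15 (0.10, -0.11 to 0.31) and, with nearly equal sums, Adam10 (57.5 and 63.2 CPM, 0.13, -0.22 to 0.51) and Adam17 (68.9 and 57.9 CPM, -0.25, -0.59 to 0.10). Adam33 (-0.64, -1.10 to -0.16) and Mmp14 (-0.51, -0.91 to -0.09) were lower, and Adam9 was higher (0.44, 0.01 to 0.90). Leaving out the cell with the most UMIs in each library brought 0 into the interval of Mmp14 (-0.86 to 0.01). By the mean over cells Mmp14 was at -0.13. Mmp12 had a ratio of -0.95 (-1.93 to 0.05), but 11 of its 18 Sham UMIs were in 1 cell, and without the cell with the most UMIs in each library the ratio was 0.05.

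Timp3 in macrophage-like cells went from 4 UMIs and 2.53 CPM in Sham to 47 UMIs and 13.2 CPM in TBI, a log2 ratio of 2.23 (0.93 to 4.32), with the TBI UMIs in 39 cells. Timp3 passed the minimum of UMIs through TBI, where these cells had 3558108 UMIs against 1583057 in Sham. After thinning, Timp3 was seen in 0.749% of Sham and 1.2% of TBI macrophage-like cells and in 1.23% and 1.14% of B-like cells, a class that should lack it. The thinned macrophage-like shares rested on 2 of 267 Sham and 8 of 664 TBI cells, and no change is read from them. The part of free RNA in these shares was not tested. Without thinning, Timp3 was seen in 1.08% and 4.97% of macrophage-like and 1.65% and 1.4% of B-like cells, and the B-like levels were 5.39 and 6.2 CPM. In the same macrophage-like cells 12 endothelial markers summed to 41.7 CPM in Sham and 85.7 CPM in TBI, with Cldn5, Tie1, Esam and Plvap at 0 in Sham. The 12 pericyte markers summed to 13.3 and 41.3 CPM, with Kcnj8 and Cspg4 at 0 in Sham and Notch3 and Des at 0 in both, and 6 fibroblast markers to 59.4 and 128 CPM. Their part in the Timp3 ratio was not tested. The median depth of macrophage-like cells was 2137 UMIs in Sham and 3861 in TBI.

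The macrophage-like clusters differed in Adam33 and Mmp14. Adam33 was at 72.7 CPM in Sham and 29.4 CPM in TBI in the cluster led by Folr2 and Cd209f, a log2 ratio of -1.31, and at 9.71 and 24.1 CPM in that led by Slamf9 and Fcgr4, a log2 ratio of 1.24. In the cluster led by Ccl8 and Hpgds it had 97.8 and 32.4 CPM from 15 and 8 UMIs. Mmp14 was at 36.3 and 11.5 CPM in the Folr2-led cluster and at 69.2 and 65.9 CPM in the Slamf9-led cluster. Adam15 and Timp2 differed little, with 215 CPM of Adam15 in both libraries in the Folr2-led cluster and 319 and 280 CPM of Timp2.

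In endothelial-like cells 13 members could be compared, 9 above 0 and 4 below, with a median log2 ratio of 0.12 beside 0.01 for all genes. None was past 2-fold in either direction, beside 2.3% of all genes higher and 0.767% lower. Timp3 (-0.21, -0.34 to -0.07), Adam15 (0.19, -0.03 to 0.42) and Adamts1 (0.12, -0.18 to 0.43) had the most UMIs, and Timp2 was at 95.5 and 114 CPM (0.24, -0.19 to 0.71). The Timp3 interval leaves out 0 in the class, while the cluster values were 1340 and 1300, 1330 and 1310, and 653 and 546 CPM, and the Vwf-led cluster with the lowest Timp3 had 69 of 311 cells in Sham and 185 of 579 in TBI. In endothelial-like cells 6 fibroblast markers summed to 76.1 and 333 CPM and 18 macrophage markers to 204 and 555 CPM, and their part in the ratios was not tested.

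Fewer members could be compared in dendritic-like and pericyte or smooth muscle-like cells. In dendritic-like cells 9 members had at least 30 UMIs. Of these Adam23 was at least 2-fold higher (7.71 and 16.2 CPM, log2 ratio 1.03, -0.02 to 2.28), beside 1.62% of all genes, and 0 were at least 2-fold lower, beside 0.637%. The members with the most UMIs there were Adam15 (-0.23, -0.68 to 0.23), Adam8 (29.3 and 45.6 CPM, 0.63, 0.06 to 1.24) and Adam17 (0.51, -0.06 to 1.12), and Timp2 was at 23.1 and 21.6 CPM (-0.10, -0.84 to 0.65).

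In pericyte or smooth muscle-like cells, with 23 Sham and 73 TBI cells, 5 members could be compared. Mmp11 (1.57, 0.09 to 4.13) and Timp2 (1.01, -0.24 to 2.84) were at least 2-fold higher, beside 9.1% of all 967 genes, and Adamts1 was at least 2-fold lower (489 and 108 CPM, -2.17, -3.27 to -1.14), beside 5.48%. Mmp11 had 3 Sham and 31 TBI UMIs, 8 of the latter in 1 cell. Timp2 had 5 Sham and 33 TBI UMIs, 10 of the latter in 1 cell. Both genes passed the minimum of UMIs through TBI, the library in which they were higher. The class had 42946 UMIs in Sham and 129927 in TBI. Without the cell with the most UMIs in each library the intervals were -0.05 to 5.10 for Mmp11 and -0.33 to 3.78 for Timp2. Of the 21 Sham UMIs of Adamts1, 20 were in 1 cell of 16287 UMIs, and without the cell with the most UMIs in each library the ratio was 0.79 (-1.45 to 6.73). Timp3 had 45.1% of its Sham and 33.8% of its TBI UMIs in 1 cell each (-0.22, -0.69 to 0.28), and Mmp14 was at 210 and 177 CPM (-0.29, -1.41 to 1.05). In these cells 6 immune markers summed to 186 CPM in Sham and 2920 CPM in TBI, 6 fibroblast markers to 2700 and 3890 CPM and 12 endothelial markers to 2910 and 985 CPM, and their part in the ratios was not tested.

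A list of 28 partners and regulators of these enzymes was read beside them: proprotein convertases that activate them, inhibitors and uptake receptors, tetraspanins and iRhoms that guide ADAM10 and ADAM17, the plasminogen activators and ADAMTS-like proteins. None of its measured genes was past 2-fold in any of the 5 classes. Of all genes compared, 3.71% were at least 2-fold higher in fibroblast-like, 1.76% in macrophage-like and 2.3% in endothelial-like cells. In dendritic-like and pericyte or smooth muscle-like cells 1.62% and 9.1% were. The shares at least 2-fold lower were 2.23%, 0.846%, 0.767%, 0.637% and 5.48% in the same order. At these shares a list of this size may hold none. In fibroblast-like cells 16 genes of the list were measured, 8 above 0 and 8 below. Reck, a membrane inhibitor of MMPs, was lower (115 and 69.5 CPM, log2 ratio -0.74, -1.23 to -0.20), as were the convertase Pcsk7 (90.7 and 58.8 CPM, -0.64, -1.19 to -0.03) and the plasminogen activator Plat (162 and 111 CPM, -0.55, -0.96 to -0.11). Without the cell with the most UMIs in each library the intervals of Pcsk7 (-1.13 to 0.08) and Plat (-0.84 to 0.09) included 0. Lrp1, which takes up proteases and their inhibitors, was higher (1010 and 1210 CPM, 0.26, 0.10 to 0.42). In macrophage-like cells 13 were measured, 9 above 0 and 4 below, and none had an interval that left out 0. In endothelial-like cells 15 were measured, 7 above 0 and 8 below. Bsg, or basigin, a glycoprotein of barrier vessels that induces MMPs in neighbouring cells, was higher there (1420 and 2010 CPM, 0.50, 0.39 to 0.62), and Tspan15 (98.7 and 69.7 CPM, -0.51, -0.99 to -0.01) and Adamtsl1 were lower (Adamtsl1 40.5 and 20.4 CPM, -0.99, -1.82 to -0.14). Bsg was highest in the cluster led by Vwf (3160 and 3870 CPM, 0.29, 0.14 to 0.44), which had 69 of 311 Sham and 185 of 579 TBI cells, and had 865 and 1560 CPM (0.85, 0.44 to 1.29) in that led by Sema3g and 865 and 782 CPM (-0.15, -0.34 to 0.05) in that led by Gpihbp1. Without the cell with the most UMIs in each library the interval of Tspan15 (-0.95 to 0.05) included 0. In dendritic-like cells 8 were measured, 4 above 0 and 4 below, with Tspan17 lower (32.4 and 17.4 CPM, -0.89, -1.63 to -0.18), and in pericyte or smooth muscle-like cells 2, both above 0.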

How the data were processed

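Single-cell RNA-seq of the dorsal meninges was read from 1 Sham and 1 TBI library, each of 5 pooled mice. The authors mapped the reads and deposited whole-number UMI counts per gene and barcode, not normalized; the processing notes name Cell Ranger 2.1.1, and the matrix header gives software version 3.1.0. Cells with 150 to 5000 genes, at most 20% mitochondrial and at most 5% hemoglobin UMIs were kept, which left 2043 Sham and 3773 TBI cells. They were clustered with scanpy 1.11.5 (2000 variable genes without the members, 20 principal components, 20 neighbours, Leiden resolution 0.8). A cluster was named by the class with the highest mean log2 fold of its markers among classes with at least 3 markers at 2-fold or more and in at least 10% of its cells, a rule set after the clusters were seen. The scrublet threshold marked 2 and 3 cells, so the expected number with the highest scores (33 Sham and 114 TBI) was taken as predicted doublets and left in.

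UMIs were summed by class and library. A ratio added 0.5 to each sum, its interval is the exact binomial one, and 95% intervals cover counting error only. With 1 library per group there is no test. The code was tested on simulated data. Every member with at least 100 UMIs is named with its level in its leading class. In each class compared, the members past 2-fold, the 3 with the most UMIs and every TIMP with at least 30 UMIs are named, and other members named were chosen after their values were seen. The members and lists were chosen with earlier results of these data known. Alternatives changed doublets, resolution, filters, scaling and the minimum of UMIs. Leaving out the cell with the most UMIs in a class or in the whole library, leaving out a fibroblast-like subcluster and reading the macrophage-like clusters apart were chosen after seeing the data.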

Additional observations from a re-analysis of the deposited data

Results flagged for a closer look

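Adam33 differed in direction between macrophage-like clusters. Its log2 ratio of TBI over Sham CPM was -1.31 in the cluster led by Folr2 and Cd209f, from 44 Sham and 51 TBI UMIs, and 1.24 in the cluster led by Slamf9 and Fcgr4, from 8 and 38 UMIs. With 1 library per group the difference was not tested.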

How the results depend on the processing

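No paired analysis was possible because each group has 1 library, and for the same reason no replicate could be left out. The number of members past 2-fold in fibroblast-like cells, 1 with all cells, was 3 with predicted doublets removed, 3 by the mean over cells of counts per 10000, 3 without the cell with the most UMIs of the gene in each library and 4 without the subcluster led by macrophage genes. The genes and directions changed with it. Timp1 was the 1 lower with all cells, and Adam22 and Adamts5 were lower and Mmp13 higher with doublets removed. By the mean over cells Adam12, Mmp11 and Mmp13 were higher, with Timp1 at -0.48. Without the cell with the most UMIs Mmp11, Mmp13 and Mmp19 were higher, from 4, 0 and 3 Sham UMIs, with Timp1 at -0.21. The fibroblast-like median of -0.10 was 0.12 by the mean over cells, -0.21 with a minimum of 10 UMIs, -0.23 with 100 UMIs and 0.03 without the cell with the most UMIs. In macrophage-like cells the number past 2-fold, 1, was 3 by the mean over cells, 3 with a minimum of 10 UMIs, 0 with 100 UMIs, 2 without the cell with the most UMIs, 0 within the Hpgds-led cluster and 3 within the Folr2-led cluster, where the median was -0.08 instead of 0.04. In endothelial-like cells the number, 0, was 1 by the mean over cells and 4 with a minimum of 10 UMIs. In the whole library the number of members past 2-fold, 9, was 11 without the cell with the most UMIs, and Timp1 went from 0.23 to 1.63. Shares over all genes are given only for the main setting and for fibroblast-like cells without the subcluster led by macrophage genes. The other counts therefore stand without such a share. Changes of the UMI minimum change which genes are counted, and the cause of the other changes was not tested. Resolutions of 0.4 and 1.6, the members among the variable genes, a minimum of 200 genes, cells under 1000 UMIs left out, both hemoglobin settings and centring moved none of these counts or medians past their limits. The sign of the ratio was the same in every setting for 19 of 31 members in fibroblast-like, 7 of 14 in macrophage-like and 11 of 13 in endothelial-like cells.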
